A study of Homo sapiens with 12 samples.

Results

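The complement components and regulators described here are 9 human genes, C1R, C1S, C3, C5, CFB, CD46, CD55, CD59 and SERPING1. They were taken by exact symbol from the gene table of the study and are 9 of the 58288 genes counted in each library. Of the 9, 8 had enough reads to be tested, among 14088 tested genes. SERPING1 did not. The cells were MV3, an established human melanoma line that was started from a lymph node metastasis. They were kept for 24 h in fresh RPMI medium (Ctrl, 3 libraries) or in medium conditioned by macrophages derived from THP-1, a human monocytic leukaemia line (3 libraries for each medium). THP-1 cells were differentiated with PMA alone (M0), or were also treated with LPS and interferon gamma (M1) or with IL4 and IL13 (M2). MV3 cells were grown in 10% serum and the experiment used 1% serum. All groups had first spent 3 h in 1% serum. The fresh medium had held no cells, so a difference from Ctrl covers everything that conditioning changed in the medium, and LPS, interferon gamma, IL4 or IL13 carried over from the macrophage cultures cannot be told apart from macrophage products. A single melanoma line and a single monocytic line stand for each cell type. Nothing in the labels tells whether the libraries of a group were grown apart, and the p-values therefore reflect the spread among these libraries, which may be technical.

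Complement is a cascade of blood and tissue proteins that marks targets for removal and can form pores in their membranes. In the classical pathway the paired serine proteases C1r and C1s cleave C4 and C2. All routes meet at C3, the central component, and go on to C5, whose cleavage starts the membrane attack complex, while factor B (CFB) supplies the protease of the alternative pathway convertase. C1 inhibitor (SERPING1) blocks C1r and C1s. On the cell surface CD46 is a cofactor for the cleavage of C3b and C4b, CD55 speeds the decay of C3 and C5 convertases, and CD59 blocks the last step of pore formation. Most of the circulating components are made in the liver, and many other cells, tumour cells among them, make some of them and carry the membrane regulators.

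C1R was high in M1 medium alone, CFB was scarce and highest in M1 medium, and CD55 was about equally high in all 3 conditioned media. The promoters of these 3 members, chosen for that difference in level, are printed first. Each is the 250 bases before a RefSeq transcript start (GRCh38.p14), 5′ to 3′ on the strand of the gene. RefSeq windows were found for 6 of the 9 members. Capitals mark the matches to 3 motifs searched on both strands: the GAS element TTCNNNGAA, an interferon gamma response element, the interferon response core GAAANNGAA, and the NF-kB motif.
C1R, chr12:7091894-7092143, minus strand: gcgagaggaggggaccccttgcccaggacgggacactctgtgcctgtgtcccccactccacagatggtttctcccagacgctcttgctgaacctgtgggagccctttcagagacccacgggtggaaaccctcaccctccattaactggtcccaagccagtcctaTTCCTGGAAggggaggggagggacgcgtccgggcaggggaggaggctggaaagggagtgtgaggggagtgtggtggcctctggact
CFB, chr6:31945845-31946094, plus strand: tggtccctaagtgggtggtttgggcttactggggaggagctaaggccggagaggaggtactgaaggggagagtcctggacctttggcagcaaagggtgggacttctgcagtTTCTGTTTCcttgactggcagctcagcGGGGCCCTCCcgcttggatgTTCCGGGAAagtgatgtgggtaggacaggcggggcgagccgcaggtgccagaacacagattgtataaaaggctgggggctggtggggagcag
CD55, chr1:207321428-207321677, plus strand: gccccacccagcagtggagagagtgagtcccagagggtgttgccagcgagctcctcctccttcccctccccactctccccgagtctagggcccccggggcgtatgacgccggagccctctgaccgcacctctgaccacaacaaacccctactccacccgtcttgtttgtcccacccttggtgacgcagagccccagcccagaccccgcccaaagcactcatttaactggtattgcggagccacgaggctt
The C1R window held a GAS match 86 bases before the start. The CFB window held, in order towards the start, an interferon response core on the minus strand at 139 bases before it, an NF-kB match at 112 and a GAS match at 92. The CD55 window held none of the 3 motifs. A second C1R window, chr12:7092396-7092695, had no match either, and of the other members with a window CD59 held a GAS match and C5 and CD46 held none. Of the 35116 windows of the table, each 300 bases long with 50 bases after the start, 7.66% held the GAS letters, 8.11% the interferon response core and 11.3% the NF-kB motif. GAS reads the same on both strands, so a match counts once. A match is a run of letters and was not tested as a binding site. CD59, which held a GAS match, had no call between M1 and M0. Whether the motifs had a part in the levels was not tested.

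The 12 libraries held 21788397 to 42921242 counted reads. M2 replicate 2 stood apart, with 3759 genes found in no other library against 160 to 453 in the rest. None of the 15 macrophage markers had enough reads to be tested, and 2 of them (AIF1 and FCGR3A) were at 0 in all 12 libraries. Their summed level was 0.736 to 1.00 CPM in Ctrl, 0.558 to 0.776 in M0, 0.634 to 0.845 in M1 and 0.322 to 0.709 in M2. Of 13 melanoma markers 6 were tested. VIM, AXL, CSPG4, MCAM and S100A4 were expressed, and so was MITF, the pigment cell regulator, at 128 reads in Ctrl, 247 in M0, 233 in M1 and 202 in M2 (2.60-fold higher in M0 than in Ctrl, adjusted p = 3.24e-05). PMEL had 2 to 8 reads a group and DCT and NGFR 0 to 2, and SOX10, MLANA, TYR and S100B had at most 1.

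C1R and C1S, which lie near each other on chromosome 12, were both much higher in M1 medium than in any other group. Levels are given as CPM, counts scaled by the TMM library size. Fold changes come from the edgeR fit, with the Benjamini-Hochberg adjusted p of its quasi-likelihood test. The standard error (SE) is not from that fit. It was taken from the spread of log2 CPM between libraries, with a prior count of 2, which narrows the spread of groups near 0 reads. The C1R level was 4.66, 4.12 and 4.47 CPM in Ctrl, 5.73, 6.38 and 5.36 with M0, 52.3, 49.1 and 48.9 with M1, and 5.29, 3.76 and 5.33 with M2. The M1 libraries lay far above the other 9 libraries, whose values were within a narrow band. In bulk RNA, more cells that express a gene and more RNA per cell cannot be told apart. C1R (GRCh38, chr12:7080199-7092607, minus strand) was 8.63-fold higher in M1 than in M0 medium (log2 difference 3.11 ± 0.08 SE, adjusted p = 9.48e-12), 10.4-fold higher than in M2 (adjusted p = 3.30e-12) and 11.3-fold higher than in fresh medium (adjusted p = 5.55e-13). M0 medium gave a rise of 1.31-fold over Ctrl (adjusted p = 0.0144) that was no longer called without Ctrl replicate 2 (adjusted p = 0.0632) or without M0 replicate 2 (adjusted p = 0.0712). M2 did not pass the test against Ctrl (log2 difference 0.12 ± 0.17, adjusted p = 0.418).

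C1S, the protease that C1r activates, showed the widest range of the 9 genes. Its level was 0.662, 0.268 and 0.688 CPM in Ctrl, 1.21, 1.07 and 1.40 with M0, 99.3, 116 and 89.9 with M1, and 2.09, 1.17 and 1.36 with M2. In reads this was 59 over the 3 Ctrl libraries, 99 in M0, 10832 in M1 and 148 in M2. The M1 libraries were above all others, the Ctrl libraries were the lowest, and M0 and M2 overlapped. C1S (chr12:6988259-7071032, plus strand) was 81.7-fold higher in M1 than in M0 (log2 difference 6.35 ± 0.15, adjusted p = 7.80e-13), 64.3-fold higher than in M2 (adjusted p = 7.43e-13) and 182-fold higher than in Ctrl (log2 difference 7.50, adjusted p = 7.60e-14; 6.64 from the variance-stabilized values). The rise over Ctrl was also called in M0 (2.22-fold, adjusted p = 0.00528) and in M2 (2.82-fold, adjusted p = 0.000327). M2 and M0 were not separated (log2 difference 0.34 ± 0.26, adjusted p = 0.36).

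The balance between both proteases differed as well. On a scale per length (RPKM, CPM per kilobase of exon), C1S was 0.0834 in Ctrl and 15.7 ± 2.02 (SD, n = 3) in M1, and C1R was 0.750 in Ctrl and 8.51 in M1. The ratio of C1S to C1R per length was 0.129, 0.0592 and 0.140 in Ctrl, 0.193, 0.153 and 0.238 with M0, 1.73, 2.15 and 1.68 with M1, and 0.36, 0.284 and 0.232 with M2. C1S was thus the lower of the pair in 9 libraries and the higher in the 3 M1 libraries, and the M1 ratios did not overlap any other group. With 3 libraries against 3 a two-sided exact permutation test cannot go below p = 0.1, and over the 30 such ratio tests the lowest adjusted p was 0.125. C1R shares 672 exonic bases with C1RL and C1S shares 229 with EMG1, and reads from such stretches may be left uncounted or split, since the sources used here name neither the counting tool nor its strand setting.

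**Figure D1:**
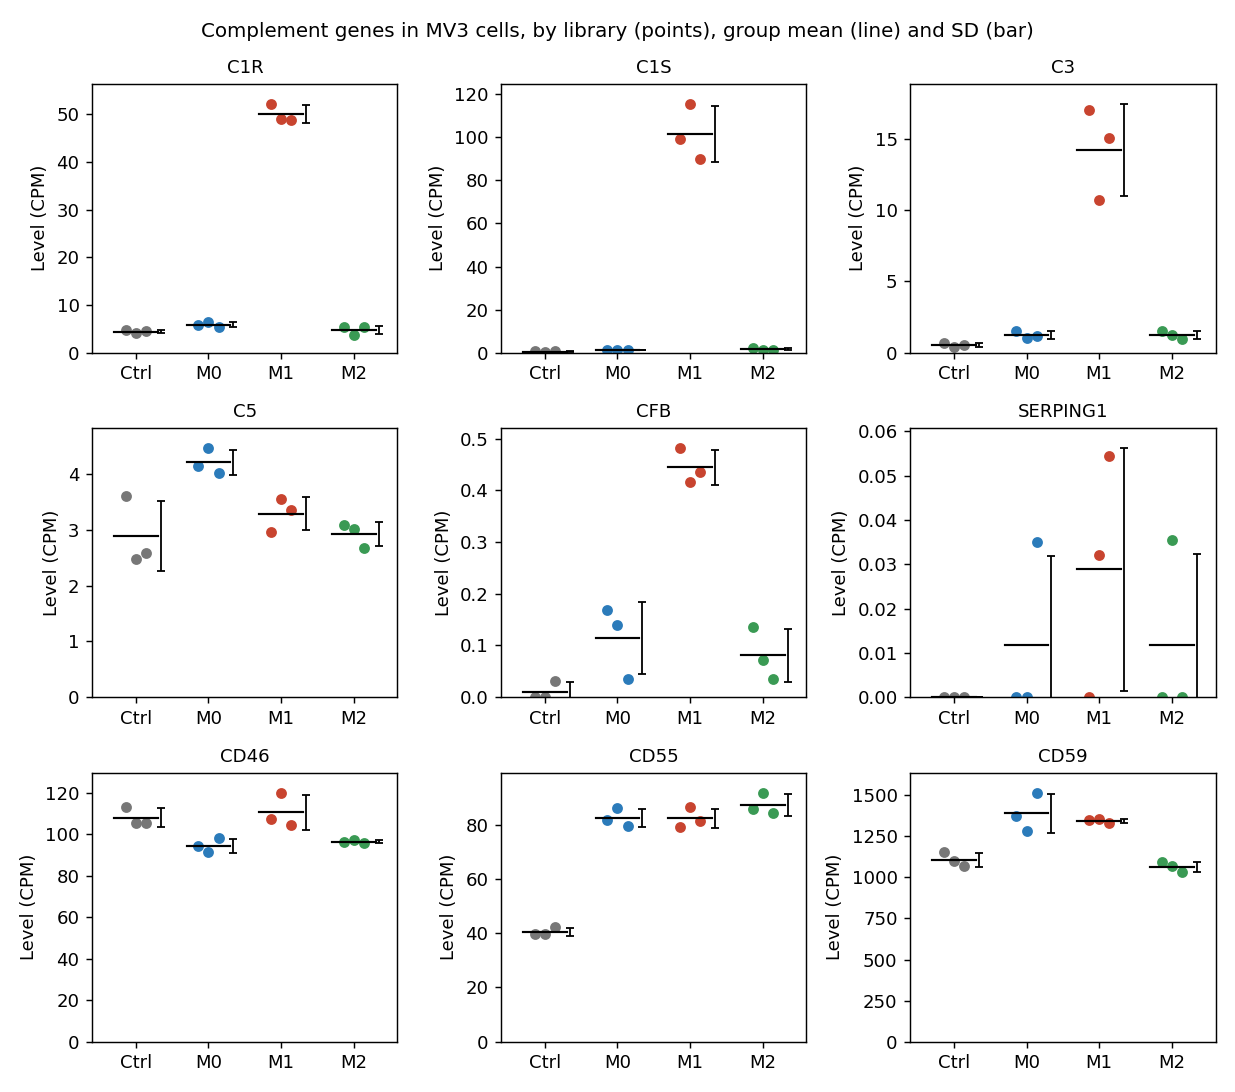
Each panel plots 1 of the 9 members, with the level in CPM on a linear y axis from 0 and the 4 groups on the x axis. Points are libraries, lines are group means and bars are ± 1 SD (n = 3), cut at 0. C1R, C1S, C3 and CFB are highest in the M1 libraries, whereas CD55 is low in Ctrl (39.6 to 42.3 CPM) and high in all 3 conditioned media.

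C3 followed the same order at lower levels. Its values were 0.685, 0.368 and 0.531 CPM in Ctrl, 1.52, 1.02 and 1.16 with M0, 17.0, 10.7 and 15.05 with M1, and 1.55, 1.24 and 0.965 with M2. The M1 libraries were the highest, with M1 replicate 2 below the other 2, the Ctrl libraries were the lowest, and M0 and M2 overlapped. C3 (chr19:6677704-6730562, minus strand) was 11.4-fold higher in M1 than in M0 (log2 difference 3.51 ± 0.26, adjusted p = 6.86e-09), 11.2-fold higher than in M2 (adjusted p = 6.40e-09) and 26.1-fold higher than in Ctrl (log2 difference 4.71, adjusted p = 1.31e-10; 3.83 from the variance-stabilized values). It rose over Ctrl by a similar amount in M0 (2.28-fold, adjusted p = 0.00346) and M2 (2.32-fold, adjusted p = 0.00216). M2 against M0 gave a log2 difference of 0.02 ± 0.25 (adjusted p = 0.962).

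C5 did not move with C3. The C5 level was 3.61, 2.48 and 2.59 CPM in Ctrl, 4.15, 4.47 and 4.03 with M0, 2.97, 3.55 and 3.35 with M1, and 3.09, 3.01 and 2.68 with M2. M0 held the 3 highest libraries and the other groups overlapped. C5 (chr9:120952335-121050276, minus strand) was 1.44-fold higher in M0 than in Ctrl (adjusted p = 0.00868) and lower in M2 than in M0 (log2 difference -0.52 ± 0.08, adjusted p = 0.0262). That second call was lost without any of the 3 M0 libraries (adjusted p = 0.0576, 0.0559 and 0.0620), without M2 replicate 2 (0.0656) and without M2 replicate 3 (0.103). M1 and M0 did not overlap, yet the test gave no call (log2 difference -0.36 ± 0.09, adjusted p = 0.0639). M1 against Ctrl gave no call with all libraries (0.17 ± 0.18, adjusted p = 0.352), and a rise was called without Ctrl replicate 1 (log2 difference 0.37, adjusted p = 0.0339). Per length, C3 was below C5 in Ctrl, M0 and M2, with mean ratios of C3 to C5 of 0.142, 0.231 and 0.333, and above it in M1, with a ratio of 3.46 ± 1.07 (SD, n = 3).

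CFB was close to the limit of detection in every group and passed the filter only through M1. It had 0, 0 and 1 reads in Ctrl, 5, 3 and 1 with M0, 19, 13 and 16 with M1, and 5, 2 and 1 with M2. All M1 libraries were above all others. The level in M1 was 0.445 ± 0.0337 CPM (SD, n = 3). From the summed reads of CFB (chr6:31945650-31952084, plus strand), the ratio of M1 to M0 was 3.96 with an exact 95% counting interval of 1.92 to 9.17, and the ratio of M1 to M2 was 5.20 with an interval of 2.44 to 12.7. A gene kept by a filter because of M1 had to be high there, so its test was read from the edgeR fit with no filter on low counts: M1 was higher than M0 (adjusted p = 0.00202), M2 (0.000266) and Ctrl (7.19e-10). Against Ctrl, with its single read, the ratio was 47.2 in M1 with an interval of 8.08 to 1904. M0 and M2 were above Ctrl in the same fit (adjusted p = 0.015 and 0.0465), but in fits of only these 2 groups CFB had too few reads to be tested. In the filtered fit the M0 call (0.0123) was lost without Ctrl replicate 1 (0.0567) or M0 replicate 1 (0.0712), and the M2 call (0.0265) without Ctrl replicate 1 (0.104), Ctrl replicate 2 (0.0728) or M2 replicate 1 (0.155). CFB shares 2249 of its 4997 exonic bases with another annotated gene on the same strand, AL645922.1, which is listed at 0 reads in all 12 libraries, so its reads may be undercounted and its level is uncertain. Intervals and floors cover counting error only.

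SERPING1 (chr11:57597387-57614853, plus strand), whose product restrains C1r and C1s, had 0 reads in each Ctrl library, 1 read in M0 (replicate 3), 1 and 2 reads in M1 (replicates 2 and 3) and 1 read in M2 (replicate 2). A count of 0 allows a level of up to 3 reads, which is 0.0685 to 0.140 CPM depending on the library. A change in SERPING1 was not detectable at this depth in any comparison, including the M1 medium in which C1R and C1S were highest.

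Among the membrane regulators, CD55 had the plainest pattern: it was about 2.03 to 2.15 times as high in the 3 conditioned media as in Ctrl, with no call among the media. The CD55 level was 39.8, 39.6 and 42.3 CPM in Ctrl, 81.7, 86.1 and 79.6 with M0, 79.2, 86.3 and 81.3 with M1, and 85.9, 91.8 and 84.1 with M2. No Ctrl library came near the 9 libraries in conditioned medium, which overlapped one another. CD55 (chr1:207321376-207386804, plus strand) was 2.03-fold higher in M0 than in Ctrl (log2 difference 1.02 ± 0.05, adjusted p = 2.10e-09), 2.03-fold higher in M1 (adjusted p = 1.12e-09) and 2.15-fold higher in M2 (adjusted p = 7.03e-10). Between media the log2 differences were 0.08 ± 0.05 for M2 against M0 (adjusted p = 0.353) and -0.09 ± 0.05 for M1 against M2 (adjusted p = 0.312), and M1 against M0 had an adjusted p of 0.970.

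CD59, the most abundant member, was higher in M0 and M1 than in Ctrl and M2. Its level was 1155, 1098 and 1072 CPM in Ctrl, 1374, 1282 and 1517 with M0, 1349.9, 1353 and 1333 with M1, and 1093, 1067 and 1034 with M2. The M0 and M1 libraries were all above the Ctrl and M2 libraries, and M0 spread around the tight M1 values. CD59 (chr11:33703010-33736491, minus strand) was 1.25-fold higher in M0 than in Ctrl (log2 difference 0.33 ± 0.08, adjusted p = 0.000383) and 1.21-fold higher in M1 (adjusted p = 0.00109). It was lower in M2 than in M0 (log2 difference -0.39 ± 0.07, adjusted p = 0.00132) and 1.26-fold higher in M1 than in M2 (adjusted p = 0.000904). M2 against Ctrl gave -0.06 ± 0.04 (adjusted p = 0.436), and M1 against M0 gave -0.05 ± 0.07 (adjusted p = 0.553). CD59 shares 629 exonic bases with AL049629.2.

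The largest difference of CD46 between any 2 groups was smaller than that of the other tested members. Its level was 113, 105 and 106 CPM in Ctrl, 94.2, 91.3 and 98.0 with M0, 107, 120 and 104 with M1, and 96.4, 97.1 and 95.5 with M2. All Ctrl and M1 libraries were above all M0 and M2 libraries. CD46 (chr1:207752057-207795513, plus strand) was lower than Ctrl in M0 (log2 difference -0.19 ± 0.04, adjusted p = 0.0158) and in M2 (-0.16 ± 0.03, adjusted p = 0.0318), and M1 did not differ detectably from Ctrl (0.03 ± 0.07, adjusted p = 0.658). It was 1.17-fold higher in M1 than in M0 (adjusted p = 0.00771) and 1.15-fold higher in M1 than in M2 (adjusted p = 0.0259). The M1 against M2 call was lost without M1 replicate 2 (0.0722), M2 replicate 2 (0.0608) or M2 replicate 3 (0.0839). The M2 against Ctrl call was lost without M2 replicate 2 (0.0677) or M2 replicate 3 (0.0909). M2 against M0 had a log2 difference of 0.03 (adjusted p = 0.780).

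Compared per length, the 3 membrane regulators were mostly CD59. Their summed level was 126 ± 4.44 RPKM (SD, n = 3) in Ctrl, 159 ± 11.3 in M0, 156 ± 2.35 in M1 and 129 ± 3.203 in M2. CD59 made up 84.7% of that sum in Ctrl, 84.3% in M0, 83.0% in M1 and 79.9 ± 0.524% in M2. The share of CD55 was 5.44% in Ctrl, 8.82% in M0, 8.90% in M1 and 11.5 ± 0.452% in M2. CD46 held 9.82%, 6.83%, 8.11% and 8.61% in the same order. M2 thus had the lowest mean share of CD59 and the highest of CD55, and a share describes the mix of transcripts, not the protein on the surface.

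**Figure D2:**
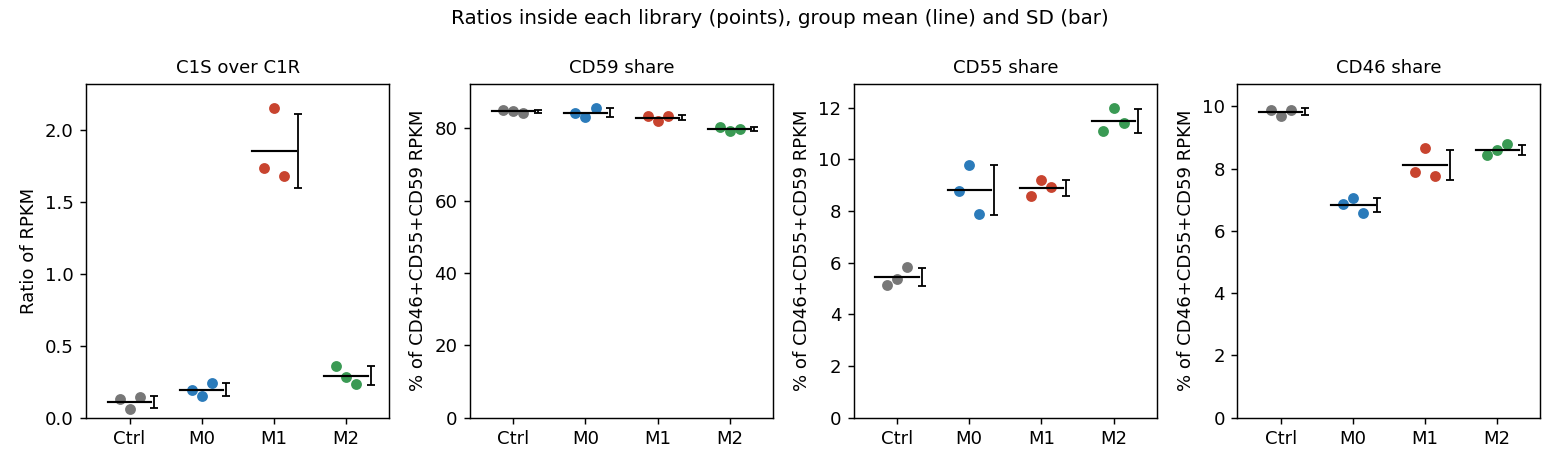
Panels plot ratios and shares per library, computed from RPKM, with the 4 groups on the x axis and a linear y axis from 0. Points are libraries, lines are means and bars are ± 1 SD (n = 3). The C1S to C1R ratio is between 1.68 and 2.15 in M1 and below 1 in every other library.

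The order of levels per length in Ctrl was CD59, CD46, CD55, C1R, C5, C1S, C3 and CFB from high to low, at 107, 12.4, 6.87, 0.750, 0.443, 0.0834, 0.0634 and 0.00208 RPKM. C1S and C3 were neighbours within their spread. In M0 and M2 CD55 stood above CD46, at 13.96 and 14.8 RPKM against 10.8 and 11.1, with the rest of the order as in Ctrl. In M1 the order was CD59, C1S, CD55, CD46, C1R, C3, C5 and CFB, at 130, 15.7, 13.9, 12.7, 8.51, 1.71, 0.504 and 0.0890 RPKM. There C1S and CD55 differed by less than the SD of C1S.

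The calls over the 6 comparisons are counted here beside the share of all 14088 tested genes called in the same direction. CFB could be tested only because of its M1 reads, so the counts and medians are those of the other 7 tested members, and the median with CFB follows. The first 3 comparisons share libraries with each other and with the last 3, which also share the Ctrl libraries. In M1 against M0, 4 of the 7 members (C1R, C1S, C3 and CD46) were higher and 3 had no call, where 25.5% of all genes were higher and 26.7% lower. The median log2 difference was 0.23 over the 7, 1.09 with CFB, and -0.01 over all tested genes. In M2 against M0, C5 and CD59 were lower and 5 members had no call, where 12.5% of genes were higher and 12.7% lower. The median was 0.02, turned to -0.12 with CFB, and was 0.00 over all genes. In M1 against M2, 5 members were higher and 2 had no call, where 15.9% of genes were higher and 16.6% lower. The median was 0.34, 1.33 with CFB, and -0.03 over all genes.

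Against fresh medium, 6 of the 7 members were higher and 1 (CD46) lower in M0, where 31.1% of genes were higher and 30.6% lower. The median was 0.52, 0.77 with CFB, and 0.00 over all genes. In M1, 5 members were higher and C5 and CD46 had no call, where 35.2% of genes were higher and 35% lower. The median was 1.02, 2.26 with CFB, and -0.00 over all genes. In M2, C1S, C3 and CD55 were higher, CD46 was lower and 3 had no call, where 34.1% of genes were higher and 32.4% lower. The median was 0.12, 0.61 with CFB, and 0.02 over all genes. The share of the 7 that was higher in M2 was thus near the share of all genes.

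**Figure D3:**
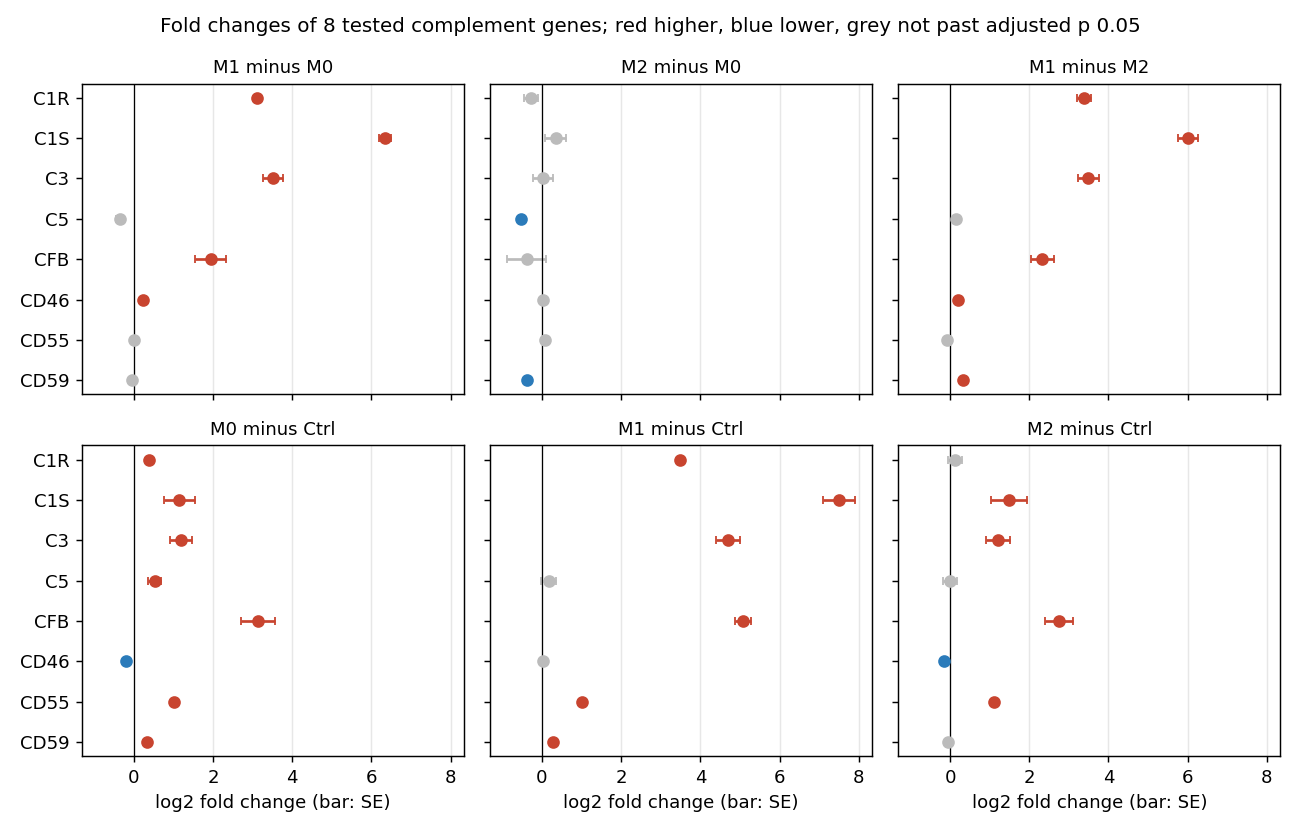
Dots give the log2 difference of each tested member in the 6 comparisons, on a linear x axis with bars of ± 1 SE, in red where the gene was higher and blue where it was lower at an adjusted p of 0.05, and in grey otherwise. CFB passed the filter only through M1, and its values against Ctrl depend on the prior count, since Ctrl had 1 read. The bars come from the spread of log2 CPM with a prior count of 2 and do not show the counting error of so few reads. In the 3 comparisons that involve M1 medium as the numerator, C1S lies furthest to the right, at 6.35 against M0.

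The other 47 complement genes on the list, which covers the remaining components, receptors and soluble regulators, were mostly not expressed at a level that could be tested: 6 were tested and 10 had no read in any library. Of the 6, 2 were higher and 3 lower in M1 than in M0, 1 was higher in M2 than in M0, and 2 were higher and 2 lower in M1 than in M2. Against Ctrl, 1 was higher and 2 lower in M0, 2 higher and 3 lower in M1, and 1 higher and 4 lower in M2. The medians of the 6, in the same order of comparisons, were -0.02, -0.15, 0.04, -0.16, -0.34 and -0.34, against medians over all tested genes of -0.03 to 0.02. With 6 genes these counts stand beside shares of all genes called higher and lower of 25.5% and 26.7% in M1 against M0, 12.5% and 12.7% in M2 against M0, 15.9% and 16.6% in M1 against M2, and 31.1% to 35.2% and 30.6% to 35% against Ctrl, and several are near them.

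C5AR1, the receptor for the C5a fragment, went from near 0 to a clear level in every conditioned medium. Its level was 0.0685, 0.0669 and 0.156 CPM in Ctrl (10 reads in all), 15.3, 28.8 and 12.6 with M0, 46.8, 50.0 and 47.8 with M1, and 31.0, 42.2 and 40.6 with M2. Every conditioned library was far above Ctrl, the M1 libraries were the highest and the M0 libraries the lowest of these. It was 190-fold higher in M0 than in Ctrl (log2 difference 7.57 ± 0.44, adjusted p = 1.00e-09), with log2 differences of 8.93 ± 0.25 in M1 (adjusted p = 3.30e-11) and 8.59 ± 0.29 in M2 (adjusted p = 1.00e-10). M1 was above M0 (1.37 ± 0.36, adjusted p = 7.51e-05) and M2 above M0 (1.02 ± 0.38, adjusted p = 0.00376), the second not when M0 replicate 3 and M2 replicate 2 were both left out (0.72, adjusted p = 0.0795). The variance-stabilized values gave smaller log2 differences from Ctrl, of 5.14 in M0, 6.56 in M1 and 6.20 in M2. M1 against M2 had no call (0.35 ± 0.14, adjusted p = 0.204), but was called with no filter on low counts (0.00113) and in a fit of these 2 groups (0.0253). C5AR1 is also made by macrophages, whose 15 markers summed to at most 1.00 CPM in any library, highest in Ctrl. Among them PTPRC had 9 reads in Ctrl, 1 in M0, 2 in M1 and 0 in M2, whereas CSF1R had 2, 3, 8 and 4 and LYZ 0, 3, 3 and 1 in the same order. Their part in the C5AR1 difference was not tested.

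COLEC12, a scavenger receptor collectin, was lower in every conditioned medium, with 149 ± 14.7 CPM in Ctrl, 61.7 ± 6.46 in M0, 26.6 ± 0.894 in M1 and 58.5 ± 3.97 in M2. It fell against Ctrl in M0 (log2 difference -1.27 ± 0.12, adjusted p = 6.06e-09) and further in M1 than in M0 (-1.21, adjusted p = 4.30e-08). C1QBP, a C1q-binding protein found mainly in mitochondria, was at 325 CPM in Ctrl, 320 in M0, 238 in M1 and 292 in M2, and was lower in M1 than in M0 (-0.43, adjusted p = 4.32e-05). CLU, the soluble inhibitor clusterin, was at 7.88, 9.14, 6.70 and 8.14 CPM in the same order, and was also lower in M1 than in M0 (-0.44, adjusted p = 0.00488). SUSD4, a membrane inhibitor of complement, had few reads, with 114 over the Ctrl libraries, 32 in M0, 56 in M1 and 21 in M2. It was lower than Ctrl in M0 (-1.42, adjusted p = 0.00122), M1 (-1.03, adjusted p = 0.0044) and M2 (-2.23, adjusted p = 3.43e-05). The variance-stabilized values gave -1.21 for SUSD4 in M2 against Ctrl. Some of the calls counted above were close to the threshold and were lost when 1 library was left out. SUSD4 in M1 against M2 (adjusted p = 0.0256) was lost without M1 replicate 3 (0.139) or M2 replicate 1 (0.0636), 2 (0.0679) or 3 (0.0724). C1QBP in M2 against Ctrl (0.0381) was lost without Ctrl replicate 2 (0.0815) or 3 (0.0983) or without M2 replicate 1 (0.0848), 2 (0.0579) or 3 (0.0937).

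**Figure D4:**
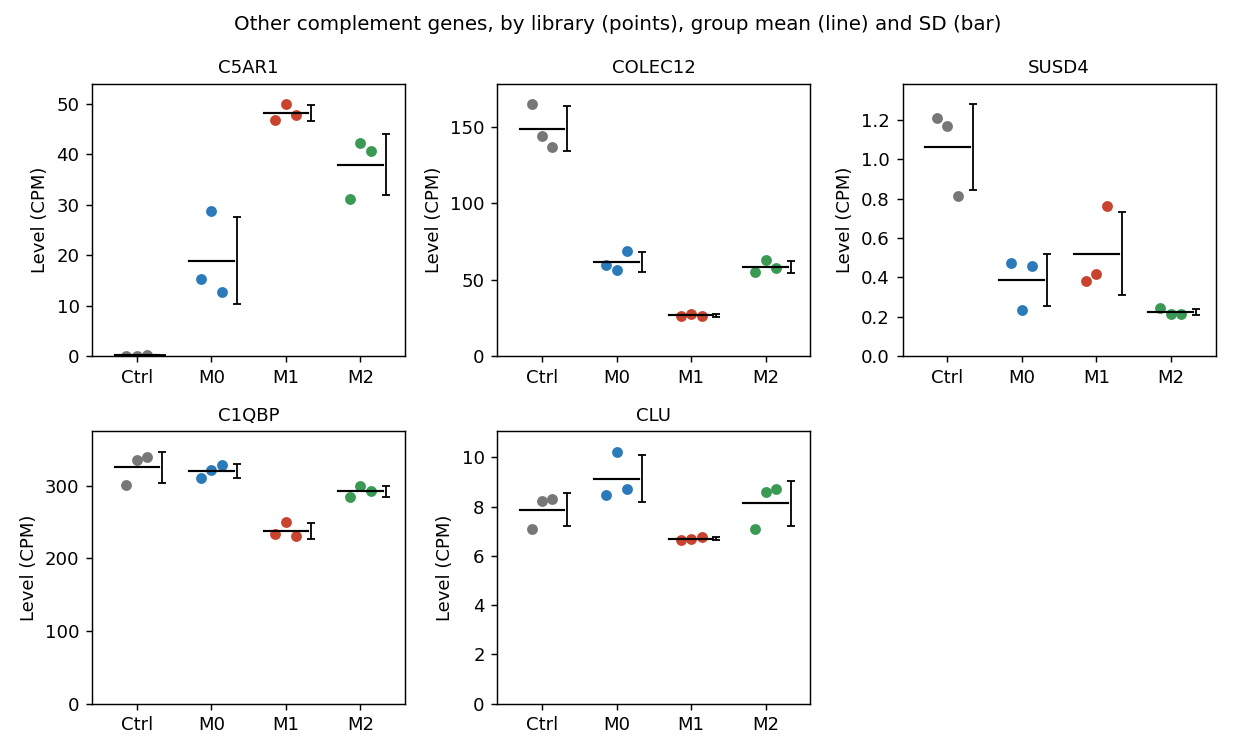
Panels plot C5AR1, COLEC12, SUSD4, C1QBP and CLU from the wider complement list, with the level in CPM on a linear y axis from 0 and the 4 groups on the x axis. Points are libraries, lines are means and bars are ± 1 SD (n = 3). C5AR1 is between 12.6 and 50.0 CPM in conditioned media and at most 0.156 in Ctrl.

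Genes that carry interferon, interleukin and NF-kB signals were read in the same libraries, since M1 macrophages had been treated with LPS and interferon gamma. Of 26 listed genes 25 were tested. In M1 against M0, 21 were higher, 3 lower and 1 had no call, with a median log2 difference of 0.68, where 25.5% of all genes were higher and 26.7% lower. In M2 against M0, 8 were higher and 3 lower (median 0.04, 12.5% and 12.7% of all genes), and in M1 against M2, 15 were higher and 10 had no call (median 0.45, 15.9% of all genes higher). Against Ctrl, 12 were higher and 8 lower in M0 (median 0.11), 20 and 2 in M1 (median 1.41), and 15 and 6 in M2 (median 0.42), where 31.1%, 35.2% and 34.1% of all genes were higher and 30.6%, 35% and 32.4% lower. STAT2 and IRF9, which transmit interferon signals to the nucleus, were highest in M1, with log2 differences from M0 of 2.68 and 3.89 ± 0.19, with means there of 160 CPM for STAT2 and 1.90 CPM for IRF9. The variance-stabilized values gave 2.14 for IRF9 in M1 against M0. IRF9 had 10 reads over the M0 libraries and was lower in M0 than in Ctrl (log2 difference -2.27, adjusted p = 0.000347). Its log2 difference between M1 and Ctrl was 1.62 (adjusted p = 4.10e-05). IRF9 shares 1838 of its 3794 exonic bases with another annotated gene on the same strand, AL136295.5. Its reads may therefore be undercounted, and its level is uncertain.

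The NF-kB subunit gene RELB was higher in all conditioned media than in Ctrl, at 6.12 CPM in Ctrl, 49.2 in M0, 102 in M1 and 41.6 in M2 (log2 difference between M0 and Ctrl 3.00, adjusted p = 6.05e-13). NFKB2 was too, at 20.2, 94.8, 176 and 81.8 CPM (2.23, adjusted p = 1.48e-11). CEBPB, an acute phase transcription factor, was at 14.97 CPM in Ctrl, 130 in M0, 107 in M1 and 122 in M2, with a log2 difference of 3.11 between M0 and Ctrl (adjusted p = 8.10e-14) and of -0.27 between M1 and M0 (adjusted p = 0.00506). C1R, C1S and C3 were thus high in the group with the highest STAT2, RELB and NFKB2. CD55 was high in the groups with high CEBPB, RELB and NFKB2. It had no call between M1 and M0, where RELB was higher in M1 (log2 difference 1.04, adjusted p = 6.85e-08). This is a description over 4 groups. Whether these factors acted on the members was not tested.

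For the 5 members with the widest spread, the genes of most similar profile were found by the root mean square difference of centred log2 CPM over the 12 libraries, where 0 is an identical shape. C1R was closest to LAMB3 (0.216), HLA-B (0.234) and UBE2L6 (0.236), with an SD of its own of 1.52. C1S was closest to IFITM1 (0.418), MX1 (0.420) and IFI6 (0.627), with an SD of 3.06. These 3 are well-known interferon-induced genes. C3 was closest to KCNJ15 (0.302), DHX58 (0.310) and SIGLEC15 (0.319), with an SD of 1.83. CFB was closest to AC079921.2 (0.330), KRT7 (0.353) and PID1 (0.362), with an SD of 1.13. CFB passed the filter only through M1 and had few reads elsewhere. Its profile thus rests on M1 and on the prior count, and nothing is read from its nearest genes. CD55 was closest to TIGD2 (0.0520), LINC00909 (0.0626) and C16orf72 (0.0695), with an SD of 0.478.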

How the data were processed

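RNA of 12 MV3 libraries was sequenced as single 50 nt reads from stranded mRNA libraries, per the labels' protocols. Among the tools in the submitters' processing notes are STAR 2.5.4b, Bowtie2 2.2.3 and DESeq2 1.20.0, with build hg38. How reads were counted, with which annotation and strand setting, is not given in the sources used here. Raw counts per gene were deposited for each sample and as a matrix (12 of 12 files equal its columns), and a matrix of variance-stabilized log2 values, used here for gene names and for an alternative. Counts were tested with edgeR 4.0.16 (R 4.3.3): 1 quasi-likelihood fit over 12 libraries and 4 groups, TMM scaling, filterByExpr (minimum count 10, total 15), and Benjamini-Hochberg adjustment over 14088 genes at 0.05. Log2 CPM used a prior count of 2, SE came from the spread of 3 and 3 libraries, and RPKM from the exon length in GENCODE 29 (GRCh38). The fit was tested on simulated data, and the outcome of that test is not given here. Library totals of 21788397 to 42921242 set the counting precision. Replicates differed by more than sampling noise (chi-square per degree of freedom 3.01 to 25.6). Alternatives were DESeq2 1.42.0, limma 3.58.1 on the deposited log2 values, other scalings, no filter, a 2-group fit, a replicate block, stricter calls and left-out libraries. The members and gene lists were chosen with earlier results of these data known. Named were all members, the tested other complement genes, the 6 signalling genes with the largest changes, and the 3 nearest profiles of each member with at least a 2-fold range. Some named results are not reported here, and protein sequences were not analysed here.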

Additional observations from a re-analysis of the deposited data

How the results depend on the processing

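Over 660 alternative values of the 48 tests on members, 641 stayed on the same side of the threshold, 18 lost the call and 1 gained it. Over 995 values of the other named genes, 968 stayed on the same side, 18 lost the call and 9 gained it. In both sets 0 turned into a call in the opposite direction. The sign of some differences without a call did change, as for CD59 in M1 against M0 (log2 difference -0.0873 to 0.0361 with 1 library left out). Tests and counts of members in this section include CFB, unlike the counts of 7 members above, although CFB passed the filter only through M1. With all libraries they were 5, 2, 6, 8, 6 and 5 members called in the 6 comparisons. Leaving out 1 library gave 5 to 5 members called in M1 against M0, 1 to 2 in M2 against M0, 5 to 6 in M1 against M2, 7 to 8 in M0 against Ctrl, 6 to 7 in M1 against Ctrl and 4 to 5 in M2 against Ctrl. Genes called with a library left out were, in the same order, 6252 to 7083 (7354 with all), 1595 to 3906 (3553), 3341 to 4135 (4572), 7891 to 8366 (8695), 9400 to 9795 (9892) and 8659 to 9142 (9370). For M2 against M0, leaving out M0 replicate 3 and M2 replicate 2 together gave 1 member and 520 genes, an adjusted p of 0.01 gave 1 member and 1559 genes, and a change of at least 2-fold gave 0 members and 313 genes; the cause was not tested beyond these settings. The 0.01 threshold gave 2917 of the 14088 tested genes in M1 against M2. In M0 against Ctrl it gave 5 of the 8 tested members and 7000 genes. In M2 against Ctrl it gave 3 members and 7880 genes. The 2-fold limit gave 1294 genes in M1 against M0, 682 in M1 against M2, 4 members and 2309 genes in M0 against Ctrl, 3327 genes in M1 against Ctrl and 2781 in M2 against Ctrl. The variance-stabilized values shrink folds of genes with few reads: for CFB in M1 against M0 they gave a log2 difference of 0.83 in place of 1.94. Replicate numbers were not shown to pair the libraries (18 same-number correlations of -0.0775 to 0.154, 6 over 0.1, and 10 of the 18 pairs where a library correlated best with its own number); with the replicate block 5, 2, 6, 8, 6 and 5 members and 7453, 3714, 4752, 8741, 9943 and 9439 genes were called in the 6 comparisons. Depth limits CFB and SERPING1, whose counts per library were at most 19 and 2.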

Other observations

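Some other complement genes with too few reads to test had most of their reads in M1 medium; they were picked after their values were seen. C1RL, a C1r-like protease, shares 672 exonic bases with C1R on the same strand, and whether its reads came from C1R was not tested. It had 3 reads over the Ctrl libraries, 2 in M0, 49 in M1 and 2 in M2. CPN2, a subunit of carboxypeptidase N, had 9, 4, 40 and 3 reads in the same order.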
